A study of Homo sapiens with 4 samples.

Results

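The 8 genes described here are PRX, OPALIN, EMC10, FAM71E1, C11orf74, KANK4, PITRM1 and BOLA1, out of 25122 genes in the deposited table. They were picked by name because their mRNAs were among those most strongly lower in Jurkat cells carrying a short hairpin RNA against BDH1 (shBDH1) than in cells carrying a control hairpin (shcontrol), and because they stood in neither the MYC nor the ATF4 gene list of an earlier look at the same libraries. Their own difference between the groups therefore chose them. It is described below without a test.

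Jurkat is a long-cultured human leukaemia line (T-ALL, of the T-cell acute lymphoblastic kind), and the labels give the genotype of all libraries as WT. The groups were 2 libraries of shBDH1 cells and 2 libraries of shcontrol cells, made from mRNA and read as paired ends. BDH1 is an enzyme of mitochondria that turns the ketone body acetoacetate into 3-hydroxybutyrate and back. The series asks about genes downstream of BDH1, MYC among them, and also speaks of cells with MYC restored, which were not analysed here. The hairpins' sequences were not given in the sources used here. Whether the paired libraries stem from separate cultures is not in the labels; p-values therefore reflect the spread between the libraries alone, which may be technical.

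Values are normalized read counts: reads per gene after the authors' division by a size factor for each library. The libraries held 29453383 and 28777374 reads in genes in shBDH1, and 28681511 and 28797402 in shcontrol. BDH1 itself (ENSG00000161267, chromosome 3, 197509783 to 197573323, minus strand, hg38) had 1221 and 1412 normalized counts in shBDH1, against 1725 and 1911 in shcontrol. Its level in shBDH1 was 72.4% of that in shcontrol, a log2 difference of -0.47 (SE 0.08, limma adjusted p = 1.5e-05). Most T-cell genes were abundant in every library, CD3E for example with 14202 and 14065 normalized counts in shBDH1 and 12444 and 12422 in shcontrol. Of 14 measured T-cell identity genes, 9 passed the test as higher in shBDH1 and 1, CD3G, as lower. LMO2 was among the 9 but scarce in every library (27.5 and 35.2 normalized counts in shBDH1, 1.03 and 3.07 in shcontrol).

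The 8 genes do not form a known pathway. PRX (periaxin) and OPALIN encode proteins of myelin, the first in Schwann cells of peripheral nerve and the second in oligodendrocytes of the central nervous system. EMC10 is a subunit of the endoplasmic reticulum (ER) membrane protein complex, which inserts membrane proteins into the lipid bilayer, and FAM71E1 belongs to a family of Golgi-associated proteins that bind the small GTPase RAB2. C11orf74, also named IFTAP, binds the intraflagellar transport machinery of cilia. KANK4 is an ankyrin-repeat protein of a family that binds talin at the rim of cell adhesions. PITRM1 is the presequence peptidase of the mitochondrial matrix, which degrades the targeting peptides cut from imported proteins. BOLA1 is a mitochondrial protein that works with the glutaredoxin GLRX5 in handling iron-sulfur clusters.

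A short hairpin RNA is cut in the cell to a guide strand, and pairing of a guide's seed with a short stretch of an mRNA can lower that mRNA. The heptamer CCCGAGA is shown first because it occurs in the 3′ UTR of BDH1 and in 5 of the 8 genes. An earlier look at these libraries had also already drawn attention to it. The 5 count a match in any protein-coding transcript, a count not made over all genes. In the transcript with the longest coding sequence alone, 4 of the 8 hold it, beside 14.3% of 13357 other genes. The heptamer was picked for low values, in these same libraries, of genes that hold it in the 3′ UTR. The 8 were picked for low values too, so these counts are no separate evidence. Each line gives 30 bases of GENCODE 29 transcript, with the heptamer in capitals.
BDH1: ttttggatccatttgCCCGAGAatcttctg
PRX, first match: caactcccgaaggtgCCCGAGAtggccgtg
PRX, second match: aaactcccgaaggtgCCCGAGAtggctgtg
EMC10: gcccatggagtagagCCCGAGAtcctggcc
FAM71E1: gggccccactcaagaCCCGAGAccgagagt
PITRM1, first match: ctggccatcctcggaCCCGAGAacccgaaa
PITRM1, second match: tcgactgcacaggagCCCGAGAcaatacac
BOLA1: tcaggtcaaagtgaaCCCGAGAaaagagaa

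On GRCh38, the assembly called hg38, the heptamer of BDH1 lies at chr3:197511389-197511395 on the minus strand. In the PRX transcript with the longest coding sequence both matches are coding, at chr19:40396521-40396527 and chr19:40396413-40396419, minus strand, while its other protein-coding transcript has the heptamer in the 3′ UTR. The match of EMC10 (chr19:50482535-50482541, plus strand) is coding in the transcript with the longest coding sequence. Of the 5 protein-coding transcripts of EMC10, 3 hold the heptamer, 1 in the coding sequence and 2 in the 3′ UTR. The match of FAM71E1 (chr19:50467707-50467713, minus strand) is coding. PITRM1 has 1 match in its coding sequence (chr10:3138072-3138078, minus strand) and 1 in its 3′ UTR (chr10:3137996-3138002, minus strand). BOLA1 has its match in the 3′ UTR of 1 of its 3 protein-coding transcripts, which is not the one with the longest coding sequence (chr1:149900645-149900651, plus strand). None of the protein-coding transcripts of OPALIN (6), C11orf74 (9) or KANK4 (4) holds the heptamer in its coding sequence or 3′ UTR. Before the heptamer the sites resemble that of BDH1 little: of the 15 bases there, 1 to 5 were the same as in BDH1. The base after it is A in BDH1, in the first match of PITRM1 and in BOLA1, and differs in the other matches.

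All 8 genes passed the filter of a mean of at least 10 normalized counts, and all 8 did so in both groups. In each of them both shBDH1 libraries lay below both shcontrol libraries. That held for 34.9% of the 19301 genes tested, and for the 8 it follows from how they were chosen. For the background, 20.8% of the genes tested passed the limma test as lower in shBDH1 (4020 genes) and 20.3% as higher (3910 genes), at an adjusted p under 0.05. In bulk RNA, fewer cells of a kind and less RNA per cell cannot be told apart.

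**Figure D1:**
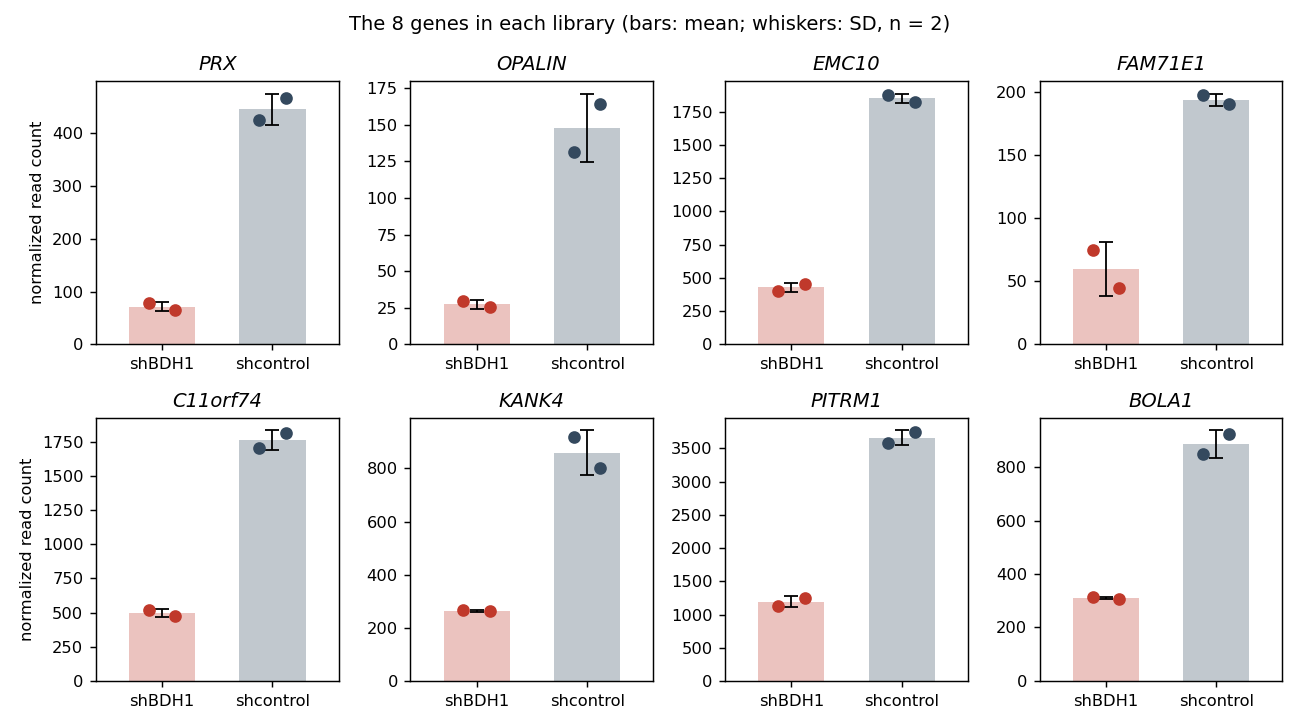
Normalized read counts of the 8 genes by library, 1 panel per gene, with shBDH1 left of shcontrol. Points are libraries, bars are group means and whiskers are the SD (n = 2 each); the groups do not overlap in any panel, and the libraries of shBDH1 stand farthest apart, relative to their mean, for FAM71E1 (74.7 and 44.2).

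Of the myelin genes, PRX (ENSG00000105227, chromosome 19, 40393768 to 40413366, minus strand) had 77.6 and 65.4 normalized counts in shBDH1, against 425 and 467 in shcontrol. Both shBDH1 libraries were low by a similar amount. The shBDH1 mean of 71.5 ± 8.68 was 16.0% of the shcontrol mean of 446 ± 29.7 (SD, n = 2 each), a log2 difference of -2.63 (SE 0.20). This was the lowest of the 8 and stood at place 4 from the bottom among all genes tested. Periaxin is a scaffold that links the Schwann cell membrane to the cytoskeleton, and its loss causes a demyelinating neuropathy.

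OPALIN (ENSG00000197430, chromosome 10, 96343216 to 96359365, minus strand) had the fewest reads of the 8, with 29.5 and 25.1 normalized counts in shBDH1, against 131 and 165 in shcontrol. These values rest on 30 and 25 reads in shBDH1 and on 128 and 161 reads in shcontrol. The means were 27.3 ± 3.07 in shBDH1 and 148 ± 23.4 in shcontrol (SD, n = 2 each). The log2 difference was -2.39, with the largest standard error among the 8 (0.33). Standard errors given here are those of limma, which follow a gene's count level more than its own spread. By the residual SD of the gene itself, on the log2 scale, FAM71E1 was the largest (0.37, beside 0.20 for OPALIN). The protein sits in the paranodes and inner loops of central myelin.

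Defining genes of the cells that make myelin were scarce in these libraries. MAG, the adhesion protein next to the axon, had 0.983 and 5.03 normalized counts in shBDH1 and 0 and 2.04 in shcontrol. MOBP had 6.88 and 4.02 in shBDH1 and was listed at 0 in both shcontrol libraries. Of 13 Schwann cell and peripheral myelin genes tested besides PRX, 2 were lower in shBDH1 and 3 higher, with a median log2 difference of 0.34, beside -0.01 over all genes tested. The lower ones were the membrane protein MAL (-1.34, SE 0.30, limma adjusted p = 0.00059) and the dystroglycan gene DAG1 (-0.76, SE 0.08, limma adjusted p = 1.3e-08), and UTRN (utrophin) was among the higher ones (0.81, SE 0.06, limma adjusted p = 2.5e-12), as was EGR2 (2.31). Without shBDH1 replicate 1 the higher ones were 1, and without shcontrol replicate 2 they were 5. Of 9 oligodendrocyte genes tested besides OPALIN, MBP, the myelin basic protein that lymphocytes also transcribe, was higher by 0.73 (SE 0.05, limma adjusted p = 8.8e-12). In the same list UGT8, which makes galactosylceramide, passed as lower (-2.19, SE 0.84, limma adjusted p = 0.038). Its libraries had 0.983 and 21.1 normalized counts in shBDH1 and 34.9 and 24.5 in shcontrol, and the call was lost in 5 alternative settings (adjusted p from 0.12 to 0.62). Among these were edgeR (adjusted p = 0.13), DESeq2 (adjusted p = 0.25), the limma fit without shcontrol replicate 1 (log2 difference -1.95, adjusted p = 0.12) and that without shBDH1 replicate 1 (-0.45, adjusted p = 0.62).

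EMC10 and FAM71E1 are neighbours on chromosome 19 that start head to head on opposite strands. EMC10 (ENSG00000161671, 50476400 to 50490870, plus strand) had 403 and 453 normalized counts in shBDH1, against 1877 and 1825 in shcontrol. The groups stood far apart relative to the spread within them: 428 ± 35.0 in shBDH1 and 1851 ± 36.5 in shcontrol (SD, n = 2 each), which is 23.1% of the shcontrol level and a log2 difference of -2.11 (SE 0.09). FAM71E1 (ENSG00000142530, 50466785 to 50476753, minus strand) had 74.7 and 44.2 normalized counts in shBDH1, against 197 and 190 in shcontrol. Here the shBDH1 libraries differed from each other more than the shcontrol libraries did. The means were 59.5 ± 21.5 in shBDH1 and 194 ± 4.98 in shcontrol (SD, n = 2 each), a log2 difference of -1.73 (SE 0.27). The difference was -2.10 without shBDH1 replicate 1 and -1.36 without shBDH1 replicate 2.

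The annotated spans of EMC10 and FAM71E1 overlap by 354 bases, of which 324 are exonic in both. The strand setting of the authors' counting was not given in the sources used here, so reads of genes that overlap on opposite strands cannot be told apart, and the separate values of such pairs are uncertain. Reads counted for FAM71E1 equalled 18.5% and 9.78% of those of EMC10 in shBDH1, and 10.5% and 10.4% in shcontrol. In 3 of the 4 libraries the ratio was thus near 10%, while both genes were lower. A second transcript, AC020909.3, lies wholly inside EMC10 on the opposite strand, and all 375 bases of its exons are also EMC10 exon. It had 235 and 303 normalized counts in shBDH1, against 1331 and 1289 in shcontrol, a log2 difference of -2.29 (SE 0.12, limma adjusted p = 2.1e-15). Its reads equalled 58.3% and 66.9% of those of EMC10 in shBDH1, and 70.9% and 70.6% in shcontrol. AC020909.2 also lies inside EMC10 on the opposite strand and was below the filter, with 3.93 and 5.03 normalized counts in shBDH1 and 14.4 and 10.2 in shcontrol.

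The promoter window of EMC10 is printed because the gene and its head-to-head neighbour FAM71E1 were both lower and because it holds a motif found in few promoters. RefSeq gives it for EMC10 (GRCh38.p14, chr19:50476257-50476556, plus strand, 250 bases before the start to 50 after it), and it lies wholly within the span of FAM71E1. Capitals mark TGACGTCA, the cyclic AMP response element, which reads the same on both strands.
EMC10 promoter: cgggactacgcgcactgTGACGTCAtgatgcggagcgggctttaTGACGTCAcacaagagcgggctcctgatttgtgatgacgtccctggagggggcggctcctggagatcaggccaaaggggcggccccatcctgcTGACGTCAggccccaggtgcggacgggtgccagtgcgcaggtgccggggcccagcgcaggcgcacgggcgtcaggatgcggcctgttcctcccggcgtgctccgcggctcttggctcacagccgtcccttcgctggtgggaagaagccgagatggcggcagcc

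This window holds TGACGTCA at 3 places, and 1.85% of the 35116 RefSeq promoter windows hold it at 1 place or more. Its GC content is 68.7%, above the median of 58.7% over all windows, and the motif itself holds a CG. FAM71E1 had no window of its own to search, and no window of the remaining genes holds TGACGTCA. The E-box CACGTG, present in 7.26% of all windows, occurs in the window of BOLA1 and in 1 of the 2 windows of OPALIN, and TATAAA, present in 11.5%, occurs in that of BOLA1. TGATGCAA, searched on both strands like the others and present in 0.866% of all windows, occurs in no window of these genes. These are matches of letters in a window, with no measurement of binding.

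The other subunits of the ER membrane protein complex did not show a difference like that of EMC10. Of the 9 tested, 2 passed as lower and 0 as higher, with a median of -0.04. The share called lower was near that of all genes tested (20.8%). In this list 0 were higher at an unadjusted limma p under 0.05, with edgeR or with DESeq2. EMC4 was lower by 0.45 on the log2 scale (1355 and 1405 normalized counts in shBDH1, 1846 and 1937 in shcontrol; limma adjusted p = 4.6e-06). EMC1 differed by -0.15 (limma adjusted p = 0.029), a call lost in 6 of the 12 alternative settings. The other 7, EMC2, EMC3, MMGT1 (EMC5), EMC6, EMC7, EMC8 and EMC9, had log2 differences from -0.17 to 0.16 and did not pass. Of 23 factors of other ER insertion routes, 8 were lower and 1, SRP54, higher (0.17), with a median of 0.01. The call of SRP54 was lost in 4 of the 12 alternative settings, for example with shcontrol replicate 1 left out (0.09) or shBDH1 replicate 2 left out (0.14). The lower ones included SRP72 of the signal recognition particle (-0.50, limma adjusted p = 8.7e-10), the tail-anchored protein ATPase ASNA1 (-0.66, limma adjusted p = 2.7e-07) and its upstream chaperone SGTA (-0.32, limma adjusted p = 3.4e-06).

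The relatives of FAM71E1 were barely detected. FAM71A, FAM71D, FAM71F1 and FAM71F2 stayed at or below 24.1 normalized counts in every library, and the 2 of them that entered the test, FAM71D and FAM71F2, did not pass. RAB2A, the GTPase of vesicle traffic between ER and Golgi, was higher in shBDH1, with 2198 and 2216 normalized counts against 1593 and 1690 in shcontrol (log2 difference 0.43, limma adjusted p = 4.5e-06). RAB2B differed by -0.23 (limma adjusted p = 0.035), a call lost in 8 of the 12 alternative settings.

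C11orf74 (ENSG00000166352, chromosome 11, 36594493 to 36659290, plus strand) had 515 and 474 normalized counts in shBDH1, against 1707 and 1811 in shcontrol. The means were 494 ± 29.3 in shBDH1 and 1759 ± 73.9 in shcontrol (SD, n = 2 each), 28.1% of the shcontrol level and a log2 difference of -1.83 (SE 0.09). The gene stands beside the recombination-activating genes, which cut DNA to assemble antigen receptors in developing lymphocytes. RAG2 overlaps it by 3787 bases on the opposite strand, with 321 bases exonic in both, and RAG1 ends 1336 bases before its start on the same strand.

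All these 3 genes were lower in shBDH1. RAG2 had 4420 and 4564 normalized counts in shBDH1, against 9065 and 8877 in shcontrol (log2 difference -0.998, SE 0.04, limma adjusted p = 6.3e-17). RAG1 had 5859 and 5956 in shBDH1, against 11348 and 11580 in shcontrol (-0.96, SE 0.04, limma adjusted p = 3.0e-17). The reads of C11orf74 equalled 11.7% and 10.4% of those of RAG2 in shBDH1, and 18.8% and 20.4% in shcontrol, so the ratio was lower in both shBDH1 libraries than in both shcontrol libraries. API5, the next gene with enough reads on the far side, lies 6652672 bases away and was higher by 0.19 (limma adjusted p = 0.0029).

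Transport genes of cilia differed far less than C11orf74. Of 7 genes of the IFT-A complex and its adaptor, WDR19 (-0.29, limma adjusted p = 0.0073) and IFT43 (-0.26, limma adjusted p = 0.035) passed as lower, and the median was -0.05. The call of IFT43 was lost in 7 of the 12 alternative settings and that of WDR19 in 1. Beside 20.8% of all genes tested, 4 of 16 IFT-B genes passed as lower, with a median of -0.16. The smallest p-values among them were those of IFT20 (-0.43, limma adjusted p = 0.0021), IFT46 (-0.35, limma adjusted p = 0.0023) and IFT27 (-0.37, limma adjusted p = 0.0026), and IFT172 was the other (-0.25). The call of IFT172 was lost in 6 of the 12 alternative settings, for example with shcontrol replicate 2 left out (-0.10) or shBDH1 replicate 2 left out (-0.17). In the IFT-A list 0 genes were higher at an unadjusted limma p under 0.05, with edgeR or with DESeq2. In the IFT-B list 0 passed as higher by limma, edgeR or DESeq2, but 1 did at an unadjusted limma p under 0.05, and 1 at the adjusted threshold with library totals only or with upper-quartile factors.

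**Figure D2:**
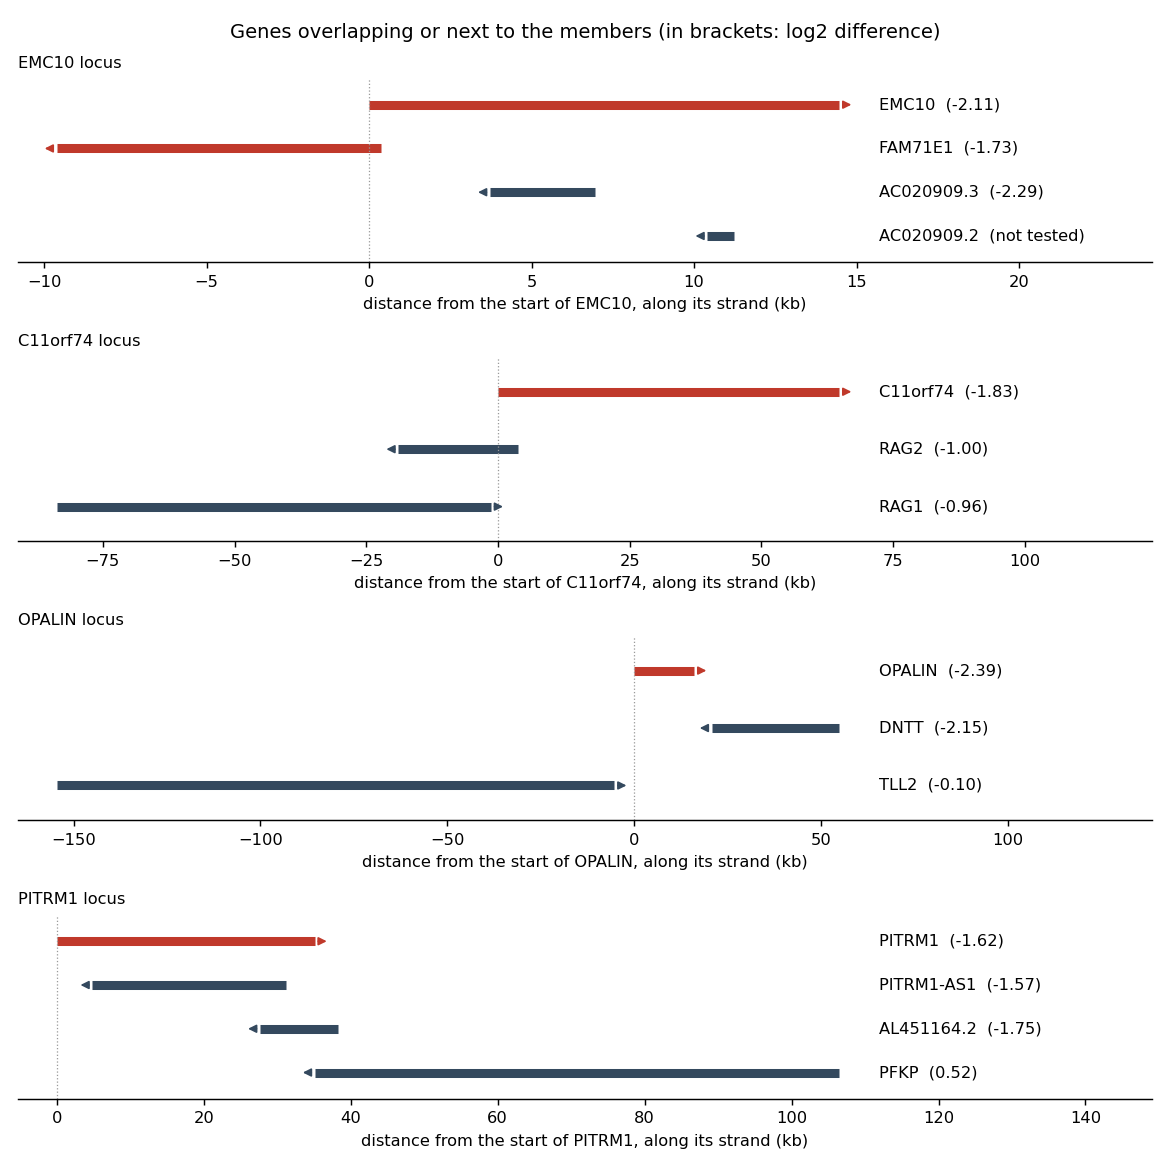
Annotated spans of EMC10, C11orf74, OPALIN and PITRM1 (red) and of genes that overlap them or lie next to them (blue), as distance in kb from the start of each red gene along its strand; FAM71E1, another of the 8, is red too. Arrowheads give the direction of transcription and brackets the log2 difference, shBDH1 minus shcontrol. Overlapping genes on the opposite strand were lower where tested, but may share reads with the red genes where exons overlap. PFKP beside PITRM1 was higher (0.52).

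OPALIN overlaps no other gene of the table, but DNTT, the terminal transferase of immature lymphocytes, ends 4651 bases from its end on the opposite strand. DNTT had 1346 and 1377 normalized counts in shBDH1, against 6000 and 6111 in shcontrol (log2 difference -2.15, SE 0.06, limma adjusted p = 5.2e-22). Reads of OPALIN equalled 2.19% and 1.83% of those of DNTT in shBDH1, and 2.19% and 2.69% in shcontrol. On the other side TLL2, 5240 bases away on the same strand, did not pass the test (74.7 and 88.5 normalized counts in shBDH1, 83.2 and 91.0 in shcontrol; limma adjusted p = 0.82).

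KANK4 (ENSG00000132854, chromosome 1, 62236979 to 62319414, minus strand) had 266 and 261 normalized counts in shBDH1, against 919 and 800.2 in shcontrol. The shBDH1 libraries were nearly equal, and the spread lay in shcontrol. The means were 264 ± 3.46 in shBDH1 and 860 ± 84.0 in shcontrol (SD, n = 2 each), 30.7% of the shcontrol level and a log2 difference of -1.70 (SE 0.12). No gene of the table overlaps it.

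The family and partners of KANK4 had the opposite sign for the most part. Of 14 tested, 10 were higher in shBDH1 and 1, TLN2, lower (-0.43, a call lost without shcontrol replicate 2), with a median of 0.28. The membrane-anchoring protein PHLDB2 had 637 and 711 normalized counts in shBDH1, against 322 and 295 in shcontrol (log2 difference 1.12, limma adjusted p = 1.6e-08). KANK2 had 902 and 843 in shBDH1, against 553 and 523 in shcontrol (0.70, limma adjusted p = 1.9e-06). TLN1, the talin that KANK proteins bind, was higher by 0.27 (limma adjusted p = 2.2e-06) and KANK1 by 0.33 (limma adjusted p = 0.012, lost in 2 of the 12 alternative settings). KANK3 did not pass (-0.04, limma adjusted p = 0.92).

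Both mitochondrial genes were lower. PITRM1 (ENSG00000107959, chromosome 10, 3137728 to 3172841, minus strand) had 1133 and 1252 normalized counts in shBDH1, against 3585 and 3742 in shcontrol. It had the most reads of the 8 and the smallest limma standard error, while the residual SD of the gene itself was smallest for BOLA1 (0.062, beside 0.078 for PITRM1). The means were 1193 ± 84.0 in shBDH1 and 3663 ± 111 in shcontrol (SD, n = 2 each), 32.6% of the shcontrol level and a log2 difference of -1.62 (SE 0.07). BOLA1 (ENSG00000178096, chromosome 1, 149887890 to 149900798, plus strand) had 313 and 307 normalized counts in shBDH1, against 849 and 923 in shcontrol. The means were 309.6 ± 4.13 in shBDH1 and 886 ± 52.1 in shcontrol (SD, n = 2 each), 34.9% of the shcontrol level and a log2 difference of -1.51 (SE 0.11), the smallest in size among the 8.

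PITRM1 also shares its locus with genes on the opposite strand. PITRM1-AS1 overlaps it by 26341 bases, with 1379 bases exonic in both, and had 862 and 852 normalized counts in shBDH1, against 2609 and 2493 in shcontrol (log2 difference -1.57, SE 0.07, limma adjusted p = 1.7e-16). AL451164.2 overlaps its end by 7439 bases with no shared exon, and had 147 and 180 in shBDH1, against 539 and 560 in shcontrol (-1.75, SE 0.15, limma adjusted p = 2.0e-10). Reads of PITRM1-AS1 equalled 76.1% and 68.0% of those of PITRM1 in shBDH1, and 72.8% and 66.6% in shcontrol. PFKP, a phosphofructokinase of glycolysis, ends 15 bases from the end of PITRM1 and had the opposite sign, with 12732 and 12288 in shBDH1, against 8744 and 8646 in shcontrol (0.52, SE 0.04, limma adjusted p = 4.3e-12).

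Neither neighbour of BOLA1 passed as lower. SV2A, 2519 bases beyond its end on the opposite strand, was higher in shBDH1, with 2890 and 3143 normalized counts against 1828 and 1994 in shcontrol (log2 difference 0.66, limma adjusted p = 1.4e-09). The histone gene HIST2H2AC, 525 bases before it, was near the filter and did not pass. Over all 8 loci, 4 of the 5 overlapping genes outside the 8 were lower and 1 was not tested. Of all genes tested, 20.8% were lower. Where exons are shared, as for AC020909.3, PITRM1-AS1 and RAG2, calls may rest partly on reads of the 8. This count is therefore not separate evidence. Of the 14 next genes that do not overlap, 5 were lower (DNTT, RAG1, USP1, PLD3 and JOSD2), 4 higher (PFKP, SV2A, API5 and KLF6) and 5 not called (SERTAD1, TLL2, POLD1, PATJ and HIST2H2AC). The calls of JOSD2 and KLF6 were lost in 1 and 2 of the 12 alternative settings.

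Many mitochondrial genes near PITRM1 in function were lower as well, by less. Of 14 other mitochondrial proteases, 6 passed as lower and 0 as higher, with a median of -0.15. The matrix proteases LONP1 and CLPP stood out in size: LONP1 had 5440 and 5504 normalized counts in shBDH1, against 10217 and 10535 in shcontrol (log2 difference -0.92, limma adjusted p = 1.2e-16), and CLPP had 1954 and 1946 in shBDH1, against 3796 and 3779 in shcontrol (-0.96, limma adjusted p = 4.5e-14). The inner-membrane protease YME1L1 was lower by 0.24 on the log2 scale (limma adjusted p = 3.3e-05). Of 16 genes of mitochondrial protein import, 10 passed as lower and 0 as higher, with a median of -0.19. In both lists 0 genes were higher at an unadjusted limma p under 0.05, with edgeR or with DESeq2. The 10 import genes were 6 without shcontrol replicate 1, with DESeq2 or with upper-quartile factors. The 10 included the translocase subunits TIMM50 (-0.54, limma adjusted p = 9.4e-11), TIMM44 (-0.63, limma adjusted p = 2.3e-10) and TOMM20 (-0.50, limma adjusted p = 3.3e-10).

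Of 19 other genes of the BOLA family and of iron-sulfur cluster assembly, 4 passed as lower and 1 as higher, with a median of -0.12. The share called lower was near that of all genes tested (20.8%). The lipoate synthase LIAS (-0.38, limma adjusted p = 6.8e-06) and the scaffold ISCU (-0.33, limma adjusted p = 0.00022) were lower, with LYRM4 (-0.30) and GLRX5 (-0.24). The call of LYRM4 was lost without shcontrol replicate 2 (-0.23) or shBDH1 replicate 2 (-0.27), and that of GLRX5 without shcontrol replicate 1 (-0.19) or shBDH1 replicate 2 (-0.13). NFU1, a late carrier of clusters, had 639 and 667 normalized counts in shBDH1, against 408 and 381 in shcontrol (log2 difference 0.73, limma adjusted p = 7.7e-06). BOLA3 did not pass (-0.23, limma adjusted p = 0.086) except without shBDH1 replicate 2 (-0.37, limma adjusted p = 0.020), and without shBDH1 replicate 1 it was at -0.08. BOLA2B did not pass (0.00, limma adjusted p = 0.996); its reads may be split with its near-identical copy BOLA2, itself below the filter.

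**Figure D3:**
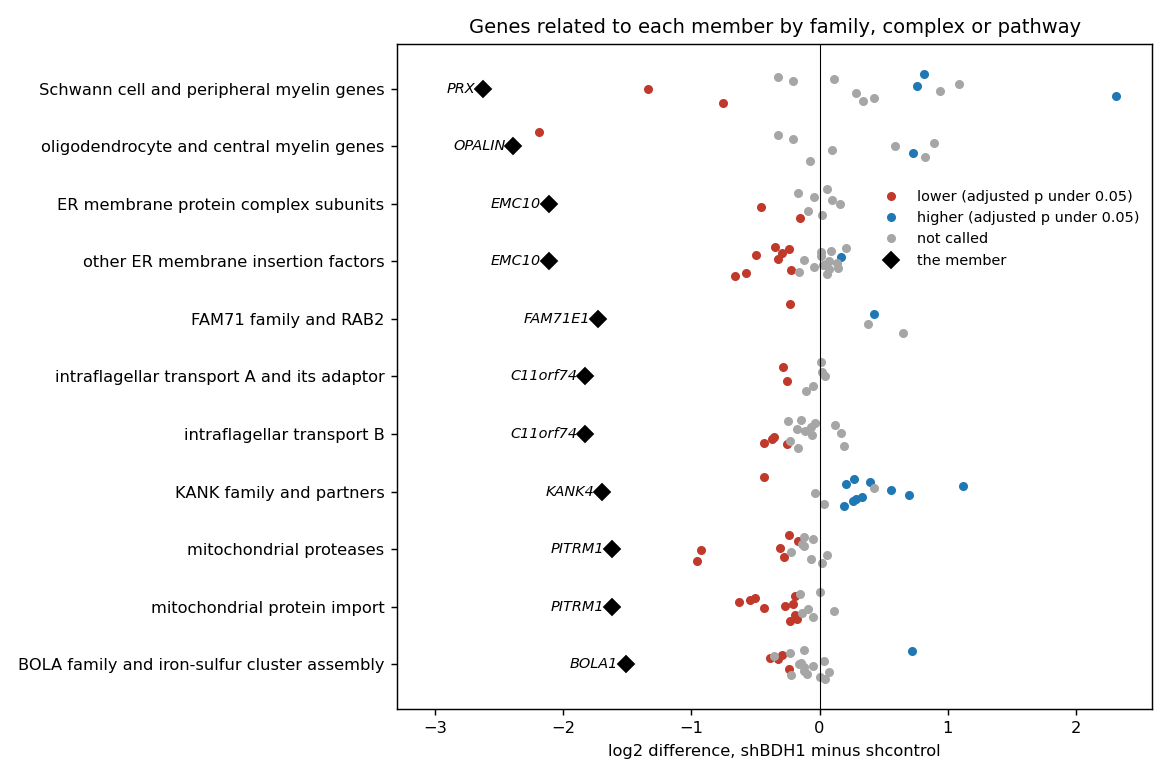
Log2 differences, shBDH1 minus shcontrol, of genes related to each of the 8 by family, complex or pathway, 1 row per list. Black diamonds are the 8 genes, red points passed as lower, blue points as higher and grey points did not pass (limma adjusted p of 0.05). Each diamond lies below every related gene of its row, which largely follows from how the 8 were chosen. The nearest related gene is UGT8 at -2.19 beside OPALIN at -2.39. The KANK row lies mainly above 0.

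The heptamer was then followed over all genes, with the 8 left out. It had been picked for the low values, in these same libraries, of genes that hold it in the 3′ UTR. The shares below therefore describe the libraries and give no separate evidence. Of 13357 genes with a protein-coding transcript, 1907 (14.3%) held CCCGAGA in the coding sequence or 3′ UTR of the transcript with the longest coding sequence. By the same measure 4 of the 8 did: PRX and PITRM1 with 2 matches each, and EMC10 and FAM71E1 with 1 each. Among genes outside the 8 with 2 or more matches, 277 in all, the median log2 difference was -0.13, and 40.4% passed as lower and 18.8% as higher. Among the 1630 with 1 match the median was -0.05, with 32.6% lower and 21.5% higher. Among the 11450 with none it was 0.01, with 23.3% lower and 24.99% higher. The transcripts with more matches were also longer, with median lengths of 5005, 3471 and 2646 bases for 2 or more, 1 and no match, and the part of length in these differences was not tested.

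**Figure D4:**
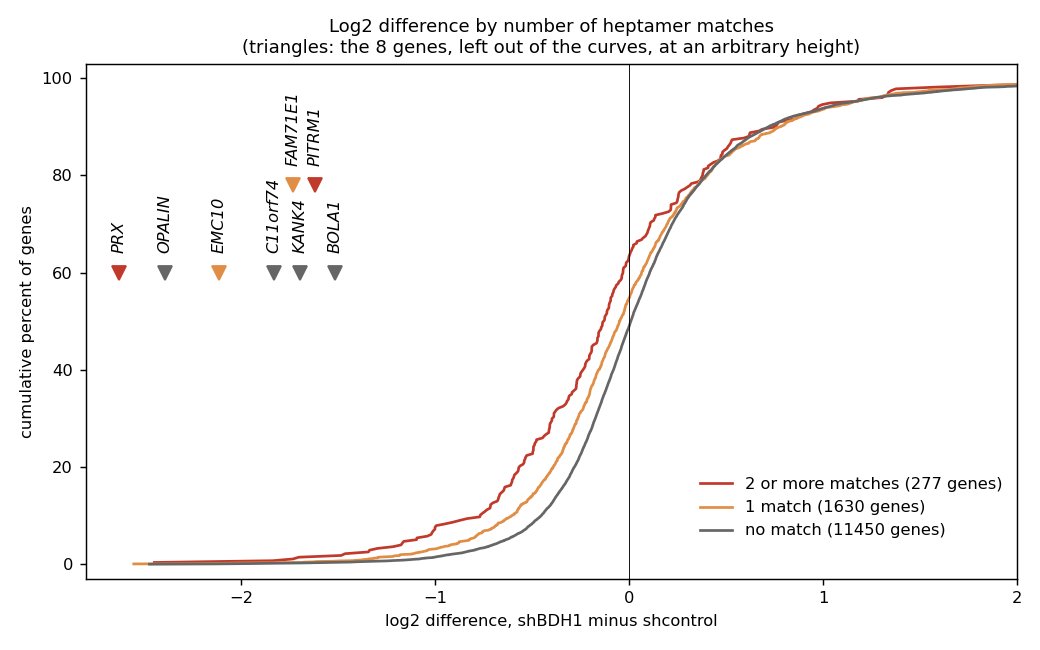
Cumulative percent of genes by log2 difference, shBDH1 minus shcontrol, for genes with 2 or more (red), 1 (orange) and no (grey) CCCGAGA match in the coding sequence or 3′ UTR of the transcript with the longest coding sequence. Triangles mark the 8 genes in the colour of their class at an arbitrary height; BOLA1 is grey because its match lies in another transcript. The red curve lies left of the grey one below 0, and the heptamer was itself picked for low values in these libraries. The place of the 8 genes on the axis follows from how they were chosen.

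Of all heptamers present in at least 200 genes, CCCGAGA had the lowest median log2 difference in 3′ UTRs (place 1 of 13251, 305 genes, -0.13) and stood at place 2 of 15660 in coding sequences (1337 genes, -0.10). The median of the 11153 genes scanned, each with a mean of at least 100, was -0.02. The heptamer followed here was taken as place 1 of this 3′ UTR scan, so that place is fixed by the choice. It was also already known from the same libraries, so the ranks describe them and give no separate evidence. Whether CCCGAGA has a part in the levels of PRX, EMC10, FAM71E1, PITRM1 or BOLA1 was not tested.

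Per kb of exon, which puts the genes on a common scale, C11orf74 was the most abundant of the 8 in both groups and OPALIN the least. C11orf74 had 335 normalized counts per kb in shBDH1 and 1193 in shcontrol, where 6.44% of the genes tested were at or above it. BOLA1 had 212 per kb in shBDH1 and 606 in shcontrol, and PITRM1 had 171 and 525. KANK4 had 44.1 per kb in shBDH1 and 144 in shcontrol, EMC10 had 39.8 and 172, and FAM71E1 had 38.0 and 124. PRX had 12.4 per kb in shBDH1 and 77.4 in shcontrol, and OPALIN had 7.04 and 38.2. Within shBDH1, FAM71E1 could not be placed relative to KANK4 and EMC10, since its libraries (47.7 and 28.3 per kb) spanned both. The exon length of EMC10 includes a long transcript, which lowers its value per kb.

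**Figure D5:**
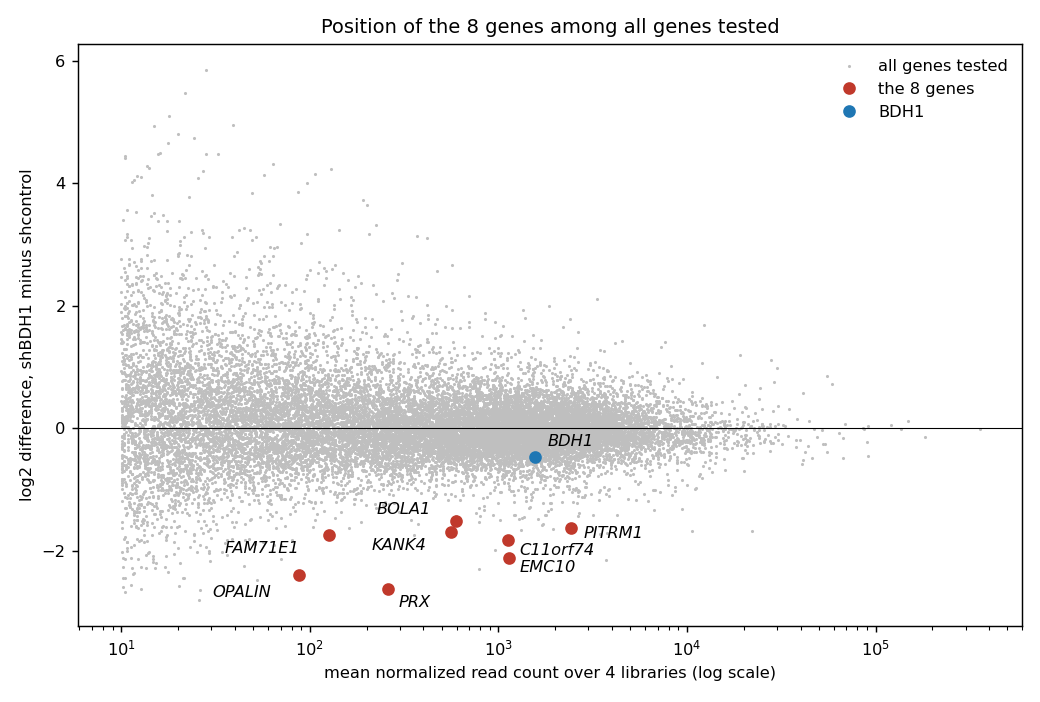
Log2 difference, shBDH1 minus shcontrol, against the mean normalized read count over the 4 libraries (log axis), with 1 point per gene tested. The 8 genes (red) lie between -2.63 and -1.51, below BDH1 (blue, -0.47), and most of them at counts where few genes lie as low.

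The difference of BOLA1 marks the edge of the set: 147 of the genes tested lay at or below it, and 18 of these were protein-coding with a mean of at least 100. Of those 18, 11 are not among the 8, and 6 of the 11 hold CCCGAGA, beside 14.3% of genes outside the 8 with a protein-coding transcript. The heptamer was itself picked for low values in these libraries, so the 6 are no separate evidence. Just inside this edge lay ZNF837 and NHSL1, both at -1.53, and just outside it ECSIT at -1.50 and KLF15 at -1.49, all among genes outside the 8 and named after their values were seen. Being in neither the MYC nor the ATF4 list also shaped the set, so values of that size are not particular to these 8 genes.

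The genes whose pattern over the 4 libraries was most like each of the 8 were found by the distance between log2 profiles centred on their own means, among 13915 genes with a mean of at least 100. DNTT was the nearest to PRX (distance 0.520), OPALIN (0.365) and EMC10 (0.113), and STC2, a secreted glycoprotein, was the second for OPALIN (0.468) and EMC10 (0.122). The second for PRX was AC020909.3 (0.561), the transcript inside EMC10. The nearest to C11orf74 was CHAC1 (0.0447), which degrades glutathione, with 548 and 509 normalized counts in shBDH1 and 1803 and 1866 in shcontrol. LRRK1 was the nearest to FAM71E1 (0.219), the amino acid transporter SLC7A5 to KANK4 (0.0960), AC126696.2 to PITRM1 (0.0734) and ECSIT to BOLA1 (0.0792). The next were SBK1 for FAM71E1 (0.310), SEPT9 for KANK4 (0.152), MRPL37 for PITRM1 (0.101) and SRM, the spermidine synthase, for BOLA1 (0.0934). With 4 libraries in 2 groups, this measure mostly finds genes with a like difference between the groups.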

How the data were processed

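The members and the lists of related genes were chosen with earlier results of these data known. The deposited table holds a normalized signal per gene and library: read counts after the authors' division by a size factor for each library. This was inferred from the values. In each library every value was a multiple of a single step, and dividing by that step gave whole reads for 100.0% of values, within 0.01 reads. For shBDH1 replicate 2 the step was close to 1, so its recovery rests on the values' decimals alone, and count tests on recovered reads serve as alternatives only. Size factors were 1.0174 and 0.9944 in shBDH1 and 0.9739 and 0.9785 in shcontrol. Genes at 0 numbered 970 and 1067 in shBDH1 and 1601 and 1644 in shcontrol. HISAT2 2.2.1, FastQC 0.11.9 and the build hg38 stand in the submitters' processing notes. The program that counted reads, its annotation and its strand setting were not given in the sources used here.

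Genes with a mean of at least 10 (19301) were fitted with limma 3.58.1 (R 4.3.3) on log2(value + 1), with a prior variance that follows intensity (25.81 prior and 2 residual degrees of freedom) and Benjamini-Hochberg adjustment over all of them at 0.05. Fold changes on this scale understate those of low genes. The fit was tested on simulated data. Alternatives were a pseudocount of 5, a mean of at least 50, no filter, library totals, upper-quartile factors, edgeR 4.0.16, DESeq2 1.42.0, a replicate block and each library left out. Libraries of a group differed by more than counting noise, with a chi-square per degree of freedom of 4.98 in shBDH1 and 3.71 in shcontrol.

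Positions, exons and transcripts came from GENCODE 29 (GRCh38), which matched 25010 of the 25122 gene IDs; 21 symbols that had become dates were renamed from their IDs. Exon lengths are unions over all transcripts. Promoters came from RefSeq, matched by symbol for 7 of the 8 genes. Named genes were the 8 and BDH1, every gene overlapping one of the 8 and the nearest on each side, up to 3 genes of each list with the smallest p and all paralogues, and the 2 genes nearest in pattern to each of the 8. Some genes that this rule takes are not reported here. Named besides, after their values were seen, were CD3E, CD3G, LMO2, MAG, MOBP, EGR2, SRP54, TLN2, IFT172, LYRM4 and GLRX5. The minimum of 200 genes for a heptamer was chosen after values were seen. Other versions were Python 3.11.15, numpy 2.4.6, pandas 2.3.3 and matplotlib 3.10.9.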

Additional observations from a re-analysis of the deposited data

How the results depend on the processing

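For all 8 genes the log2 difference kept its sign in each of the 12 alternative settings. It ran from -2.75 to -2.51 for PRX, -2.55 to -2.23 for OPALIN, -2.20 to -2.03 for EMC10, -2.10 to -1.36 for FAM71E1, -1.89 to -1.77 for C11orf74, -1.80 to -1.60 for KANK4, -1.69 to -1.55 for PITRM1 and -1.57 to -1.45 for BOLA1. Counts of calls over all genes, and over all list genes together, stayed within 1.5 times of those given. Of single lists with 3 or more calls, 2 did not: import genes called lower were 6 to 10, and Schwann cell genes called higher 1 to 5. Genes called lower numbered 3917 with edgeR and 3205 with DESeq2, and those called higher 3976 and 3325. Upper-quartile factors gave 3341 lower and 4418 higher, and leaving out 1 library gave 3201 to 3504 lower and 3011 to 3437 higher. Without shcontrol replicate 1, the calls of EMC1 (-0.16), RAB2B (-0.24), IFT43 (-0.24) and KLF6 (0.26) were lost. Without shcontrol replicate 2, those of EMC1 (-0.14), RAB2B (-0.22), IFT43 (-0.27), WDR19 (-0.26) and KANK1 (0.30) were lost. Without shBDH1 replicate 1, those of RAB2B (-0.27), JOSD2 (-0.42), KANK1 (0.26) and EGR2 (1.85) were lost. Without shBDH1 replicate 2, those of EMC1 (-0.13), RAB2B (-0.19), IFT43 (-0.16) and KLF6 (0.23) were lost.

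Some small differences that did not pass the test changed sign; the cause was not tested. Without 1 library, SERTAD1 ran from -0.0066 to 0.38, TLL2 from -0.22 to 0.025, EMC9 from -0.36 to 0.024, EMC2 from -0.090 to 0.13, KANK3 from -0.26 to 0.19, FAM71F2 from -0.55 to 1.31 and BOLA2B from -0.49 to 0.50. BOLA2B was at -0.0017 with a pseudocount of 5, at -0.072 with edgeR and at -0.072 with DESeq2, and with upper-quartile factors EMC8 was at 0.00048 and KANK3 at 0.0054. Replicate numbers did not pair the libraries (correlation of their deviations 0.035 over 13922 genes); with the replicate block, 4217 genes were lower and 4108 higher. Depth limits OPALIN, PRX and FAM71E1 most, with 25 to 79 reads per shBDH1 library.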
